A study of Rattus norvegicus with 2 samples.

Results

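The genes described here encode the machinery of mitosis: the kinases and cyclins that start it, the proteins that condense chromosomes, the kinetochores, the spindle, its midzone, the cleavage furrow and the factors that separate sister chromatids and end division. They were taken as a list of 46 gene symbols, of which 44 had a row in the deposited gene table of 25399 rows. Ccnb2 and Nek2 were without a row under these symbols and were not analysed here. A gene was called measured when it reached at least 20 counts per 1000000 unique molecular identifiers (UMIs), written CPM, in the higher of the 2 libraries. By this floor 38 of the 44 genes were measured, among 4819 measured genes in all. The 46 symbols were placed in 7 groups by role: mitotic entry (11), chromosome structure and nuclear architecture (6), kinetochore, centromere and checkpoint (7), the chromosomal passenger complex (3), spindle microtubules and motors (10), central spindle and cytokinesis (5), and sister chromatid separation and exit (4).

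Neural stem cells from the cortex of E14.5 embryos of Sprague-Dawley rats, a purchased primary stock, were grown as 2 cultures in medium with FGF2, a growth factor that keeps such cells undifferentiated and cycling. The vehicle culture received 0.2% DMSO. The other culture was given ZD7288 at 30 µM in the same amount of DMSO; this compound blocks HCN channels, cation channels that open on hyperpolarisation. Both were exposed for 48 h, with all medium exchanged at 24 h, and were read with the 10x Genomics 3′ kit, version 2; the treatment label spells the compound ZD2788, whereas the protocol and title spell it ZD7288.

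Each group was 1 culture and 1 library, so no test was possible, culture and treatment cannot be told apart, and every ratio compares these libraries. After filtering, the vehicle library held 732 cells with a median of 17119 UMIs, and the ZD7288 library held 3135 cells with a median of 23001 UMIs. The median mitochondrially encoded share was 5.84% and 4.70% of a cell's UMIs. The libraries shared 3 cell barcodes. Of 11 neural stem cell markers 8 were measured, at a summed 7584 and 7529 CPM, whereas 3 of 6 microglial markers were at 0 in both libraries. Single stem cell markers differed in both directions. Vim stood at 4204 CPM in the vehicle and 4690 CPM in the ZD7288 library, and Slc1a3 at 186 and 294 CPM. Fabp7 stood at 2647 and 2023 CPM, Sox9 at 138 and 78.2 CPM and Hes1 at 25.5 and 14.4 CPM. Neuron markers, 2 of 7 measured, summed to 171 and 187 CPM. Intermediate progenitor markers, 1 of 4 measured, summed to 203 and 201 CPM, nearly all of it Btg2. Astrocyte markers, 1 of 5 measured, summed to 33.6 and 46.5 CPM, nearly all of it Gja1 and S100b, with Gfap at 0 and 4 UMIs and Aqp4 at 0 in both. Pericyte and fibroblast markers, 0 of 6 measured, summed to 0.128 and 7.21 CPM. Oligodendrocyte lineage markers, 3 of 8 measured, summed to 2272 CPM in the vehicle and 1235 CPM in the ZD7288 library; the part of these lists in the results below was not tested.

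Dividing cells make most of these transcripts late in the cycle: cyclin-dependent kinase 1 with cyclin A or B starts mitosis, kinetochores hold chromosomes to spindle microtubules while a checkpoint watches their attachment, and the anaphase-promoting complex with its activator CDC20 then destroys securin and cyclin B. The chromosomal passenger complex, built around Aurora B kinase, corrects faulty attachments and later helps to place the cleavage furrow. Many promoters of such genes carry a cell cycle homology region (CHR) and CCAAT boxes, the letters read by the MuvB complexes and by NF-Y, and neural stem cells of the cortex pass through this programme at each division.

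Promoter sequence is shown for 6 members because these were the ones that stood apart between the whole libraries, 3 higher and 3 lower with ZD7288. Each line gives the 250 bases before the annotated start from RefSeq, assembly GRCr8, read 5′ to 3′ on the strand of the gene, with capitals marking a CHR (TTTGAA or TTCGAA) or a CCAAT box on either strand. The coordinates of the windows are Cdk1 at chr20:19265043-19265292 (+ strand), Cdc20 at chr5:137255800-137256049 (- strand), Nuf2 at chr13:84255599-84255848 (- strand), Mki67 at chr1:199952594-199952843 (- strand), Cdca3 at chr4:159320953-159321202 (+ strand) and Cenpf at chr13:103760887-103761136 (- strand).
Cdk1: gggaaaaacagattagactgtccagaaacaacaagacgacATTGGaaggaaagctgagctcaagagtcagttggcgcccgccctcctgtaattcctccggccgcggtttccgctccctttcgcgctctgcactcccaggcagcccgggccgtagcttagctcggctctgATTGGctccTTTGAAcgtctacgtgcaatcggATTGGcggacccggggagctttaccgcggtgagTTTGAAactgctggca
Cdc20: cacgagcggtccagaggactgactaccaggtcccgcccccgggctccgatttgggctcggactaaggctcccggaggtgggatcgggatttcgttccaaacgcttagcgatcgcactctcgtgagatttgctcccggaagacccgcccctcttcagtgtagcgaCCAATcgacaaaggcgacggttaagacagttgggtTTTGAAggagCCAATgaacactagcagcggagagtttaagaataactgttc
Nuf2: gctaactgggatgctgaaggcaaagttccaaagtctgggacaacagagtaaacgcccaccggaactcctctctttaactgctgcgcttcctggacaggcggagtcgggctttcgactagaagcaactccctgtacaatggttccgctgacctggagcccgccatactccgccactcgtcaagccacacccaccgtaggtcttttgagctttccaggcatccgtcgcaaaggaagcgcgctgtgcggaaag
Mki67: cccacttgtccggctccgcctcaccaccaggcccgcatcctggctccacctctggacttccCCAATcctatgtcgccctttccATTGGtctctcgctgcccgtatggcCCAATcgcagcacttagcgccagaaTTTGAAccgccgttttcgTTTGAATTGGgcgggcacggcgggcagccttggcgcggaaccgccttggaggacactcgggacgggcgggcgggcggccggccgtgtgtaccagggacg
Cdca3: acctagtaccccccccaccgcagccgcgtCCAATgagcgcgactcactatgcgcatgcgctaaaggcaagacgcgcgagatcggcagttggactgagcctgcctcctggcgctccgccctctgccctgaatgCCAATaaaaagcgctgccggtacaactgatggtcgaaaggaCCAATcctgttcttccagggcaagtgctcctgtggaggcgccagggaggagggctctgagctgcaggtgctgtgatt
Cenpf: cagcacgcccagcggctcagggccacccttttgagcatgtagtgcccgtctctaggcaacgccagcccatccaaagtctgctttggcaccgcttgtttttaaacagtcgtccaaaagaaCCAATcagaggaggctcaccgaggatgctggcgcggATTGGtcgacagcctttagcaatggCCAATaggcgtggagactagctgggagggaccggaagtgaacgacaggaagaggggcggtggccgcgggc

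In these windows Cdk1 had 2 CHR and 3 CCAAT matches, with the nearest CHR ending 10 bases before the start. Cdc20 had 1 CHR, 45 bases before the start, and 2 CCAAT matches, whereas Nuf2 held neither motif. Among the members that were lower, Mki67 had 2 CHR matches, the nearest 93 bases before the start and overlapping a CCAAT box by its last letter, and 4 CCAAT matches, whereas Cdca3 and Cenpf each had 3 CCAAT matches and no CHR. A CHR was thus present and absent on both sides of the split. A match is only a match of letters, and its absence says only that the letters are not in this window.

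RefSeq promoters were found for 41 of the 46 symbols. A CHR was present in 23 of the 41 windows (56.1%), against 18.5% of 27457 promoters of the same length. CCAAT was present in 32 of 41 (78.0%, against 36.1% of all promoters), and both motifs stood in 21 of 41 (51.2%, against 6.80%). The E2F letters TTGGCGC or TTCGCGC were found in 4 of 41 (9.76%, against 3.28%). Of the 23 members with a CHR, 15 had it within 60 bases of the start. The nearest match lay on the strand of the gene in 18, on the other strand in 4, and was TTCGAA, which reads alike on both, in 1. Besides the windows printed above, the CHR was found in those of the cytokinesis genes Ect2, Kif20b and Kif23, of the condensin genes Smc4 and Ncapd2 and of Top2a, among others.

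Over whole libraries scaled to total UMIs, the median division gene was at nearly the same level in both cultures. The summed level of these genes was lower with ZD7288, at a ratio of 0.921 (0.915 to 0.928), and single members departed in both directions. Of the 38 measured members 3 were higher and 3 lower with ZD7288 by a rule of at least 0.32 on the log2 scale, a ratio of 1.25, while 32 lay within it. By this rule 27.1% of all measured genes were higher and 13.7% lower, so the members' counts were below the background on both sides in this setting. By a 1.5-fold rule 0 members were higher and 1 lower (Mki67), against 10.0% and 5.21% of all measured genes. The median log2 ratio of the 38 was 0.00, beside 0.09 over all measured genes. Summed over the 44 genes, the level was 6121 CPM (95% counting interval 6082 to 6160) in the vehicle and 5638 CPM (5620 to 5655) in the ZD7288 library. Hmgb2 alone gave 1805 and 1488 CPM of these sums. Scaling by the median gene ratio turned the split of 3 higher and 3 lower into 1 and 10, where 19.4% of all genes were higher and 19.0% lower. Keeping only cells with at most 5% mitochondrial UMIs turned it into 0 and 12, where 17.7% were higher and 15.95% lower. In both settings the share of members that were lower was therefore above the background. The 5% limit lies below the median mitochondrial share of vehicle cells (5.84%) and above that of ZD7288 cells (4.70%). It therefore left out most vehicle cells but kept most ZD7288 cells.

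**Figure D1:**
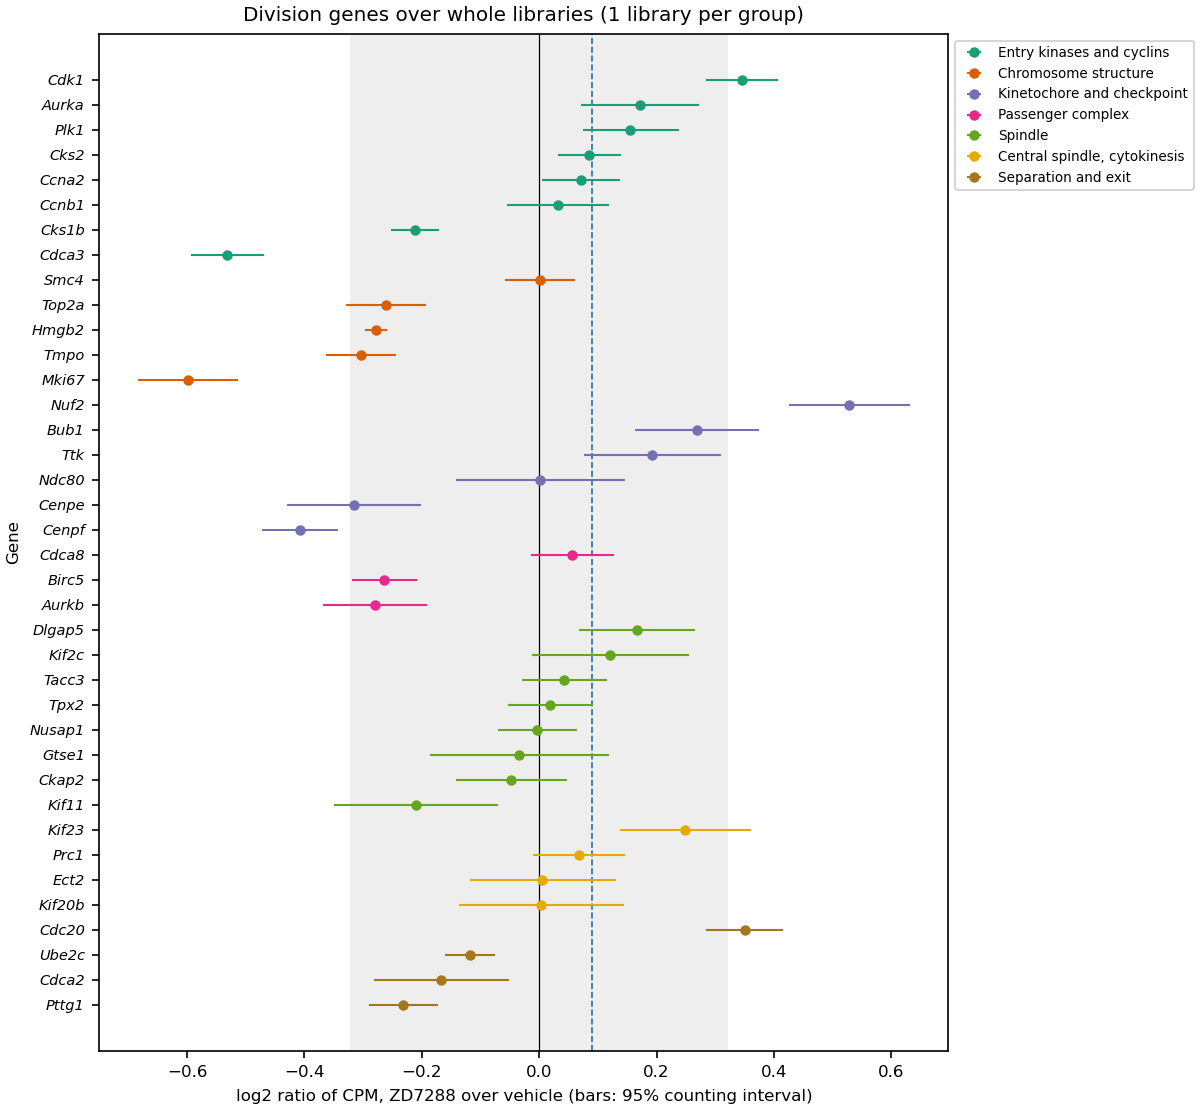
Log2 ratio of CPM, ZD7288 over vehicle, on the horizontal axis for each of the 38 measured division genes, coloured by role group and ordered within it; bars are 95% counting intervals from 1 library per group, the grey band spans -0.32 to 0.32 and the dashed line is the median of all measured genes (0.09). Nuf2, Cdc20 and Cdk1 lie to the right of the grey band and Mki67, Cdca3 and Cenpf to its left; with cells of at most 5% mitochondrial UMIs Cdk1 and Cdc20 change sign.

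The members that were higher act at the start of mitosis, at the kinetochore and at anaphase. Cdk1 (ENSRNOG00000000632), the kinase that drives entry, stood at 162 CPM in the vehicle and 206 CPM in the ZD7288 library, a ratio of 1.27 (1.22 to 1.33). Nuf2 (ENSRNOG00000002711), a subunit of the NDC80 complex that grips microtubules, stood at 56.8 and 81.9 CPM, a ratio of 1.44 (1.34 to 1.55). Cdc20 (ENSRNOG00000028415), the activator of the anaphase-promoting complex, stood at 142 and 181 CPM, a ratio of 1.27 (1.22 to 1.33). For each of these 3 genes the ZD7288 library was the higher one and the counting intervals of the levels did not overlap. These calls did not hold at the stricter mitochondrial limit. With cells of at most 5% mitochondrial UMIs the sign turned for Cdk1 (log2 ratio -0.16) and Cdc20 (-0.13). Nuf2 kept its sign but fell short of the rule, at 0.05. That limit left out most vehicle cells but kept most ZD7288 cells.

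The members that were lower are a proliferation marker, a kinetochore protein and a factor in protein destruction at mitotic entry. Mki67 (ENSRNOG00000028137), which coats mitotic chromosomes and is the antigen of the Ki-67 antibody, stood at 95.1 CPM in the vehicle and 62.8 CPM in the ZD7288 library, 1.51-fold lower (1.43 to 1.61). Cdca3 (ENSRNOG00000015529), a trigger of mitotic entry that acts in the destruction of the kinase WEE1, stood at 171 and 119 CPM, 1.45-fold lower (1.38 to 1.51). Cenpf (ENSRNOG00000003388), a large protein of the outer kinetochore and nuclear matrix, stood at 161 and 121 CPM, 1.33-fold lower (1.27 to 1.39). All 3 kept a ratio below 1 in every other setting run over whole libraries, but with at most 5% mitochondrial UMIs Mki67 and Cenpf fell short of the rule at log2 ratios of -0.30, and by the 1.5-fold rule Cdca3 and Cenpf were not called. The motor gene Cenpe lay just short of the rule at 50.8 and 40.8 CPM, a ratio of 0.803 (0.743 to 0.870).

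The remaining members of the entry group were close to even. Its 8 measured genes had a median log2 ratio of 0.08, with 1 higher and 1 lower. Ccna2 and Ccnb1, cyclins A2 and B1, stood at 139 and 146 CPM and at 84.5 and 86.4 CPM in the vehicle and ZD7288 libraries. Plk1, polo-like kinase 1, had a ratio of 1.11 (1.05 to 1.18) and Aurka, the centrosomal Aurora kinase, 1.13 (1.05 to 1.21). The small CDK-binding subunits differed in direction, Cks2 at 1.06 (1.02 to 1.10) and Cks1b at 0.863 (0.839 to 0.888); these genes, like Hmgb2, have similar copies in the genome, so their levels are uncertain. Cdc25c, the phosphatase that activates CDK1, was below the floor at 9.74 and 6.31 CPM.

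Genes of chromosome structure leaned towards the vehicle library. The median log2 ratio of the 5 measured genes was -0.28, with 1 gene lower, 0 higher and 4 of the 5 at a ratio below 1. Hmgb2, a DNA-bending protein, stood at 1805 CPM in the vehicle and 1488 CPM in the ZD7288 library. Top2a, the topoisomerase that untangles sister chromatids, stood at 141 and 118 CPM, a ratio of 0.834 (0.796 to 0.875), and Tmpo, a nuclear lamina protein, had a ratio of 0.810 (0.777 to 0.844). Smc4, a core subunit of condensin, was level at 175 CPM in both libraries. The condensin subunit gene Ncapd2 was below the floor at 8.26 and 5.44 CPM.

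Kinetochore genes spread most widely, from Nuf2 to Cenpf. Their median log2 ratio was 0.10 over 6 measured genes, 1 of them higher and 1 lower. Ndc80, the partner of NUF2 in the same complex, stood at 30.8 CPM in both libraries, a ratio of 1.00 (0.907 to 1.11), which does not overlap the interval of Nuf2. The checkpoint kinase genes Bub1 and Ttk had ratios of 1.20 (1.12 to 1.30) and 1.14 (1.05 to 1.24). Hjurp, the chaperone of the centromeric histone, had 4 UMIs in the vehicle and 12 in the ZD7288 library and was below the floor.

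Passenger, spindle, cytokinesis and exit genes held 1 further call, that of Cdc20. In the passenger complex Birc5 (survivin) stood at 210 CPM in the vehicle and 175 CPM in the ZD7288 library and Aurkb at 83.8 and 69.0 CPM, whereas Cdca8 (borealin) stood at 125 and 130 CPM. The 8 measured spindle genes lay between -0.21 (Kif11, the motor that pushes the poles apart) and 0.17 (Dlgap5) on the log2 scale, with Nusap1 at 140 CPM in both libraries. Tpx2, Tacc3, Ckap2, Gtse1 and Kif2c lay inside that range. Ckap2l at 8.33 and 7.97 CPM and Hmmr at 11.4 and 13.1 CPM were below the floor.

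The 4 measured genes of the central spindle ran from Kif20b and Ect2 at a ratio of 1.00 to Kif23 at 1.19 (1.10 to 1.28). Prc1, which bundles the midzone microtubules, stood at 102 CPM in the vehicle and 107 CPM in the ZD7288 library. Anln, the cleavage furrow scaffold anillin, had 25 and 59 UMIs, or 1.60 and 0.801 CPM, and was below the floor. In the exit group Pttg1 (securin) had a ratio of 0.852 (0.818 to 0.887), Ube2c, the ubiquitin-conjugating enzyme of the anaphase-promoting complex, 0.921 (0.894 to 0.949) and Cdca2, a phosphatase-targeting chromatin protein, 0.891 (0.823 to 0.965). Cdc20 was thus the only exit gene of the 4 with a ratio above 1 here, and its sign turned with the stricter mitochondrial limit.

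Whole-library values mix the number of mitotic cells with their transcript content, so cells were sorted by 42 other mitotic genes, none of them a member. These score genes summed to 1674 CPM in the vehicle and 1589 CPM in the ZD7288 library, a ratio of 0.949 (0.936 to 0.962). Some differed over whole libraries, Aspm and Foxm1 at ratios of 0.630 and 0.722, and Pbk and Kif18a at 1.36 and 1.33. The bands therefore rest on genes that themselves differ between the libraries. Each cell was thinned to 5000 UMIs, which left 710 vehicle and 2838 ZD7288 cells and left out 22 and 297 shallower ones. A cell with at least 13 UMIs of the 42 genes was placed in a high band, one with 5 to 12 in a middle band and one with at most 4 in a low band. The limits were set on the vehicle cells, so the vehicle shares describe the rule. The high band held 149 vehicle cells (21.0%) and 544 ZD7288 cells (19.2%, 95% interval 17.7 to 20.7). The low band held 250 vehicle cells (35.2%) and 1212 ZD7288 cells (42.7%, 40.9 to 44.6). Among cells of at most 5% mitochondrial UMIs, with the same limits (a setting added after the data were seen), the low band held 36 vehicle cells (22.6%) and 672 ZD7288 cells (41.0%), and the high band 49 (30.8%) and 377 (23.0%). These bands are ranges of a score and not cell types, and 13.8% of vehicle and 12.6% of ZD7288 cells had 11 to 14 such UMIs, close to the upper limit. More cells lay close to the limit of the low band, with 30.4% of vehicle and 28.3% of ZD7288 cells within 2 UMIs of it.

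The division genes followed the score in both cultures. A median cell carried 50 UMIs of the 44 genes at 5000 UMIs in the vehicle high band and 14 in the low band, and 53 and 9 in the ZD7288 library. Over 38 members the median fold between the CPM of the high and the low band was 4.67 in the vehicle and 6.59 in the ZD7288 library, beside 1.07 and 1.03 over all measured genes. At least a 2-fold difference was seen for 35 and 36 of the 38, against 1.80% and 1.98% of all measured genes. Members and score genes are made in the same phase of the cycle, so this describes the bands and is no test.

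The steepness differed between members. Least steep in the vehicle library were Tmpo at 1.47-fold, Pttg1 at 1.56-fold and Cks1b at 1.61-fold; these 3 were also the least steep with ZD7288, at 1.88, 2.62 and 1.90. Among the 38, the steepest in the vehicle library were Cdc20 at 8.68-fold, Ube2c at 8.23-fold and Plk1 at 8.14-fold, which act from metaphase onwards or at mitotic entry. With ZD7288 the steepest were Cenpe at 12.99-fold, Cenpf at 12.4-fold and Plk1 at 11.9-fold. Cenpf and Cenpe were 5.19-fold and 6.35-fold in the vehicle library. Kif23 (7.43 and 7.32) and Gtse1 (6.84 and 6.59) were the members whose fold was not larger with ZD7288.

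**Figure D2:**
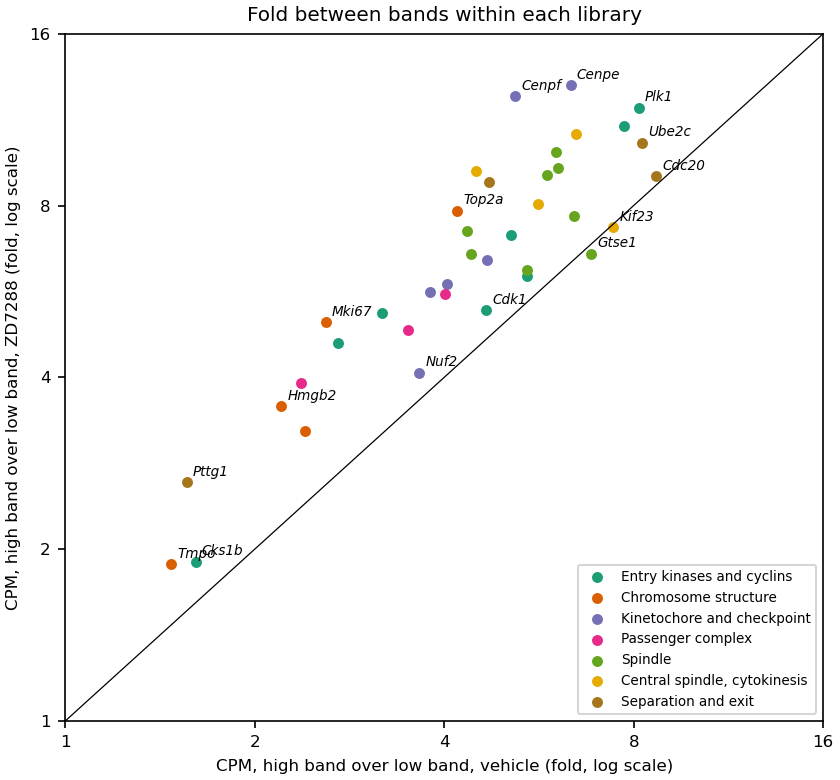
Fold between the CPM of the high and the low band in the vehicle library (horizontal axis) against that in the ZD7288 library (vertical axis), both log scales, for the 38 measured division genes coloured by role group; the line marks equal folds. Most genes lie above the line, Cenpf (5.19 and 12.4) and Cenpe (6.35 and 12.99) among the farthest, and Kif23 and Gtse1 lie just below it.

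In the high band, where cells hold the most mitotic transcripts, 5 members were higher and 0 lower with ZD7288. This is 5 of the 39 genes measured there, and by the same rule 22.2% of all genes measured in the band were higher and 14.0% lower. The median log2 ratio of the 39 was 0.12, beside 0.06 over all genes, and the summed level was 10431 CPM (10322 to 10542) in the vehicle and 10791 CPM (10740 to 10841) in the ZD7288 library. The counts did not hold in every setting: scaling by the median gene ratio gave 2 higher and 3 lower, and cells of at most 5% mitochondrial UMIs with the same limits gave 1 and 1. The high-band cells had medians of 21114 UMIs in the vehicle and 29803 in the ZD7288 library, with mitochondrial shares of 5.34% and 4.53%; the part of either in these ratios was not tested.

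Cdk1 in the high band stood at 316 CPM in the vehicle and 405 CPM in the ZD7288 library, a ratio of 1.28 (1.20 to 1.37). Cdc20 stood at 342 and 445 CPM, a ratio of 1.30 (1.22 to 1.39), and Nuf2 at 101 and 141 CPM, a ratio of 1.40 (1.25 to 1.57). Of the 3 members that were lower over whole libraries none passed the rule in this band. Cdk1, Cdc20 and Nuf2 were the same 3 that were higher over whole libraries, but those include the high-band cells, so this adds no separate support. Bub1 joined them at 110 and 138 CPM, a ratio of 1.26 (1.13 to 1.41), as did Kif2c, a motor that takes microtubules apart at centromeres, at 71.2 and 90.3 CPM, a ratio of 1.27 (1.10 to 1.46). The calls of Bub1 and Kif2c ended with another seed for the thinning (log2 ratios 0.26 and 0.25), with odd-numbered score genes (0.18 and 0.25) and with the median scaling (0.28 and 0.28). Cdc20 lay at 0.31 with that seed, and Cdk1 at 0.15, Nuf2 at 0.23 and Cdc20 at 0.19 in cells of at most 5% mitochondrial UMIs with the same limits, where Bub1 and Kif2c (0.26 and 0.19) did not pass the rule either. Aurka lay just short of the rule with a ratio of 1.25 (1.13 to 1.38), at 139 and 173 CPM.

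Cenpf was nearly even in the high band, at 307 CPM in the vehicle and 302 CPM in the ZD7288 library, a ratio of 0.984 (0.920 to 1.05). Mki67 stood at 136 and 112 CPM, a ratio of 0.826 (0.745 to 0.918), and Cdca3 at 271 and 219 CPM, a ratio of 0.807 (0.750 to 0.869). The latter pair therefore stayed below 1 without passing the rule. By role, the median log2 ratio in the high band was 0.24 for the central spindle genes, 0.19 for entry, 0.13 for kinetochore, 0.12 for spindle, 0.10 for exit, -0.01 for passenger and -0.10 for chromosome structure genes. Hmmr, a spindle assembly factor below the floor over whole libraries, was measured in this band at 26.4 and 31.7 CPM, a ratio of 1.20 (0.954 to 1.52).

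In the middle band 7 members were higher and 4 lower of 38 measured, where 28.7% of all genes were higher and 13.2% lower. Kinetochore genes made up 4 of the 7: Nuf2 had a ratio of 1.68 (1.51 to 1.87), at 55.6 CPM in the vehicle and 93.4 CPM in the ZD7288 library, Bub1 1.34 (1.20 to 1.502), Ttk 1.30 (1.16 to 1.47) and Ndc80 1.29 (1.10 to 1.51). Cdk1 at 1.41 (1.33 to 1.51), Cdc20 at 1.34 (1.25 to 1.44) and Kif23 at 1.28 (1.14 to 1.43) were the others. The members that were lower were Cenpf by 1.43-fold (1.34 to 1.53), Mki67 by 1.41-fold (1.29 to 1.53), Cdca3 by 1.34-fold (1.25 to 1.42) and Pttg1 by 1.25-fold (1.17 to 1.33). The kinetochore group therefore held calls in both directions within this band, whose cells were pooled, and whether single cells held both was not examined. Cenpf had a log2 ratio of only -0.19 there in cells of at most 5% mitochondrial UMIs with the same limits, and of 0.023 with limits set anew on those cells. The median log2 ratio of the 38 was 0.13, beside 0.11 over all genes. With the libraries scaled by the median gene ratio 2 were higher and 4 lower.

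**Figure D3:**
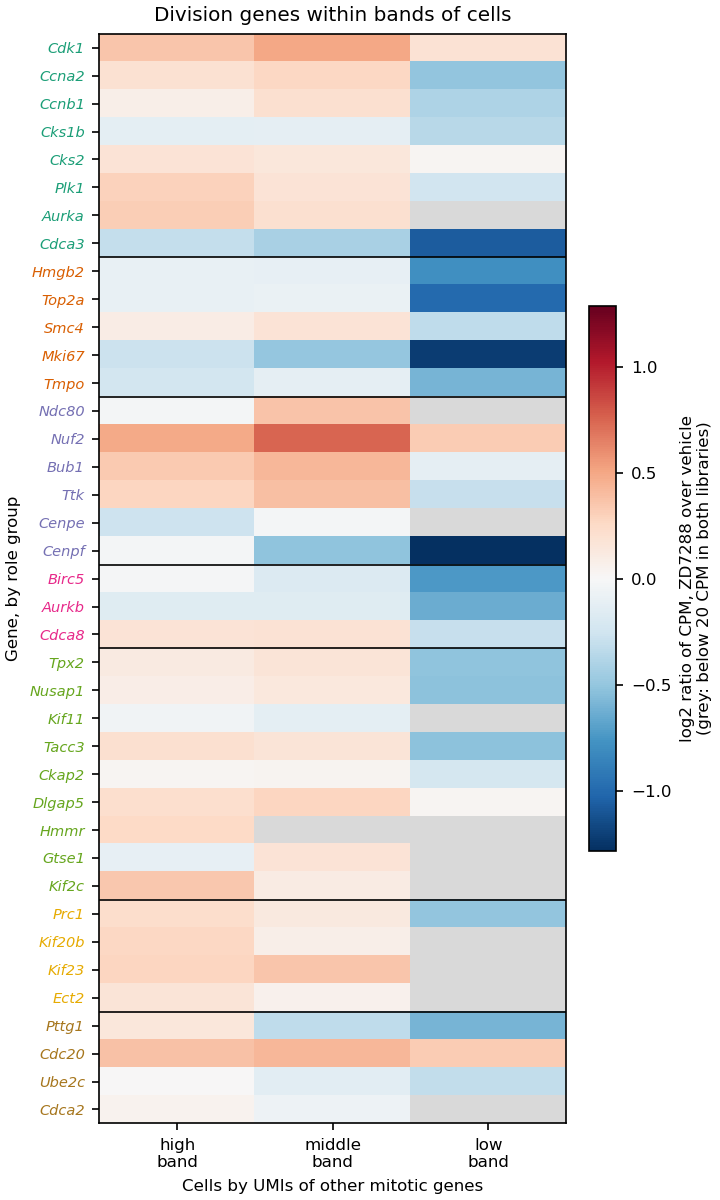
Log2 ratio of CPM, ZD7288 over vehicle, as colour (red higher, blue lower, grey below 20 CPM in both libraries) for division genes in rows by role group and for the high, middle and low bands of cells in columns. Nuf2 and Cdc20 are red in all 3 bands, whereas the chromosome structure genes and Cenpf, Cdca3 and Birc5 are darkest blue in the low band; with cells of at most 5% mitochondrial UMIs and the same limits Top2a, Nusap1 and Prc1 change sign in the low band, and with limits set anew on those cells Nuf2, Cdc20, Smc4 and Prc1 do so in the low band and Cenpf in the middle band.

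The low band held the most calls, nearly all towards lower levels with ZD7288, although not all of them held in cells of at most 5% mitochondrial UMIs. Of 28 measured members 17 were lower and 2 higher, and their median log2 ratio was -0.45. Over all genes measured in the band 16.2% were lower and 31.6% higher, with a median of 0.11. The summed level of the 44 genes was 3279 CPM (3228 to 3330) in the vehicle and 2230 CPM (2212 to 2247) in the ZD7288 library. Hmgb2 alone gave 1166 and 676 CPM of these sums. The remaining 16 members with a row were below the floor in this band. Scaling by the median gene ratio gave 22 lower and 0 higher. Cells of at most 5% mitochondrial UMIs with the same limits, 36 of them from the vehicle library, gave 13 lower and 5 higher of 29, where 21.4% of all genes were lower and 28.1% higher.

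All 5 measured chromosome structure genes were lower in the low band. Mki67 stood at 52.4 CPM in the vehicle and 22.5 CPM in the ZD7288 library, 2.33-fold lower (2.01 to 2.71). Top2a stood at 62.8 and 31.3 CPM, 2.00-fold lower (1.75 to 2.29), and Hmgb2 at 1166 and 676 CPM, 1.73-fold lower (1.68 to 1.78). Tmpo was 1.51-fold lower (1.39 to 1.64) and Smc4 1.25-fold lower (1.14 to 1.38). In cells of at most 5% mitochondrial UMIs with the same limits, Hmgb2 and Tmpo were still lower at log2 ratios of -0.69 and -0.73, whereas Mki67 was at -0.0099, Smc4 at -0.045 (0.055 with limits set anew) and Top2a at 0.24. In the high band the same 5 genes had ratios between 0.826 (Mki67) and 1.07 (Smc4).

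Cenpf stood at 59.3 CPM in the low band of the vehicle and 24.3 CPM in that of the ZD7288 library, 2.44-fold lower (2.11 to 2.80). Cdca3 stood at 100 and 47.7 CPM, 2.10-fold lower (1.89 to 2.33). Of the passenger genes, Birc5 stood at 138 and 82.6 CPM, 1.67-fold lower (1.53 to 1.82), and Aurkb was 1.55-fold lower (1.30 to 1.84). These 4 genes stayed lower in cells of at most 5% mitochondrial UMIs with the same limits, Cenpf least at a log2 ratio of -0.33 and Birc5 most at -1.10. The other members called lower were Ccna2, Ccnb1 and Cks1b of the entry group, Tpx2, Nusap1 and Tacc3 of the spindle, the midzone gene Prc1, and securin, Pttg1, by 1.28-fold to 1.52-fold; in cells of at most 5% mitochondrial UMIs with the same limits the log2 ratio was 0.65 for Prc1 and 0.81 for Nusap1.

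Nuf2 and Cdc20 went the other way in the low band, at 27.6 and 34.6 CPM, a ratio of 1.25 (1.04 to 1.51), and at 39.4 and 49.5 CPM, a ratio of 1.26 (1.08 to 1.47), though in cells of at most 5% mitochondrial UMIs with the same limits their log2 ratios were 0.16 and 0.18, short of the rule, and with limits set anew on those cells -0.24 and -0.31. Cdk1 stood at 68.0 and 77.2 CPM, a ratio of 1.14 (1.01 to 1.28). Over all cells the counting intervals of Cenpf, for its ratio in the high, middle and low bands (0.984, 0.698 and 0.410), did not overlap. Cells of the low band differed in depth as well: the median was 14816 UMIs in the vehicle and 21946 in the ZD7288 library, with median mitochondrial shares of 6.29% and 4.85%. Mean score UMIs were 2.32 and 1.94 per cell there, but 17.4 in both libraries in the high band. After the data were seen, ZD7288 cells of the low band were weighted to the vehicle numbers at each score. Of 28 measured members 11 were then lower and 3 higher (Cdk1, which was not called without weights, Nuf2 and Cdc20), with a median log2 ratio of -0.30. Over all genes 15.2% were lower and 31.6% higher, with a median of 0.11, so the share of members that were higher was below the background.

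Finer steps of the score, also added after the data were seen, are given for the main setting and not for cells of at most 5% mitochondrial UMIs. In the main setting they showed where the libraries parted. In cells with 0 score UMIs the summed ratio of the 44 genes, ZD7288 over vehicle, was 0.837 (0.769 to 0.913), from 28 vehicle and 210 ZD7288 cells; chromosome structure genes were at 0.645 and passenger genes at 0.655 there, but spindle genes at 1.76 (1.13 to 2.92) and kinetochore, central spindle and entry genes at 1.17, 1.20 and 1.07. It was 0.656 (0.635 to 0.677) with 1 to 2 score UMIs and 0.811 (0.793 to 0.829) with 3 to 4. It then came close to 1, at 0.969 (0.955 to 0.984) with 5 to 8, 1.02 (1.01 to 1.04) with 9 to 12 and 1.03 (1.02 to 1.05) with 13 or more. Chromosome structure genes stood at 0.521 (0.497 to 0.546) with 1 to 2 score UMIs, whereas the central spindle group stood at 0.967 (0.764 to 1.24) in the same cells. Chromosome structure genes, Hmgb2 among them, gave 1345 of 2704 CPM there in the vehicle and 701 of 1774 CPM in the ZD7288 library.

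**Figure D4:**
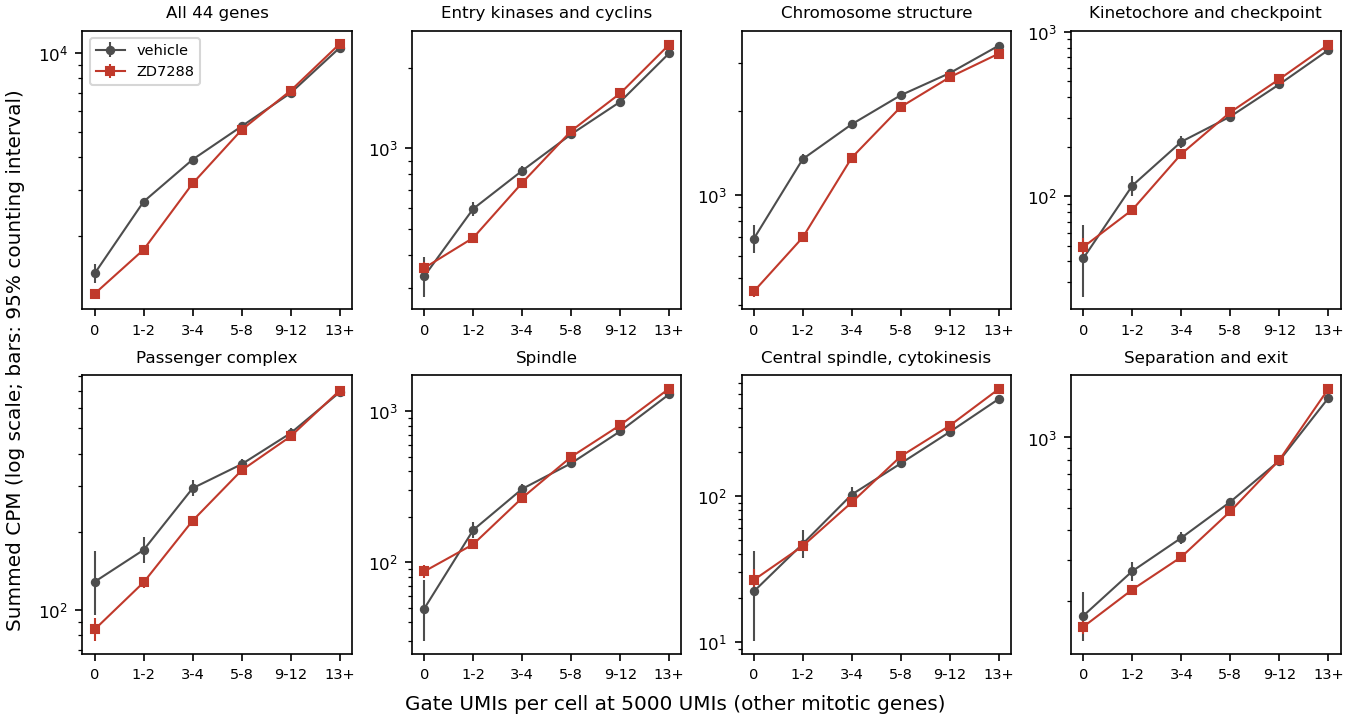
Summed CPM (log scale, bars 95% counting intervals) of all 44 division genes and of each role group against the number of UMIs of other mitotic genes in a cell at 5000 UMIs, for vehicle (grey circles) and ZD7288 (red squares), 1 library each. In the main setting, the only one shown, the lines are farthest apart at 1 to 2 UMIs for all genes together and for chromosome structure genes (ratios 0.656 and 0.521) and nearly meet from 5 UMIs on.

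Counted per cell, the ZD7288 library held more cells with few of these transcripts and was alike at the upper end. At 5000 UMIs the mean was 29.2 UMIs of the 44 genes in vehicle cells (SD over cells 17.9) and 26.0 in ZD7288 cells (SD over cells 19.2). Hmgb2, the member of highest CPM, is part of these counts. The 10th percentile was 10 and 5 UMIs and the 90th percentile 54 and 55. Cells with at most 5 such UMIs made up 4.65% of the vehicle library (33 cells, 95% interval 3.22 to 6.47) and 12.5% of the ZD7288 library (354 cells, 11.3 to 13.7). A median cell had a UMI of 12 members in either library, of 22 and 23 in the high band and of 7 and 6 in the low band.

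**Figure D5:**
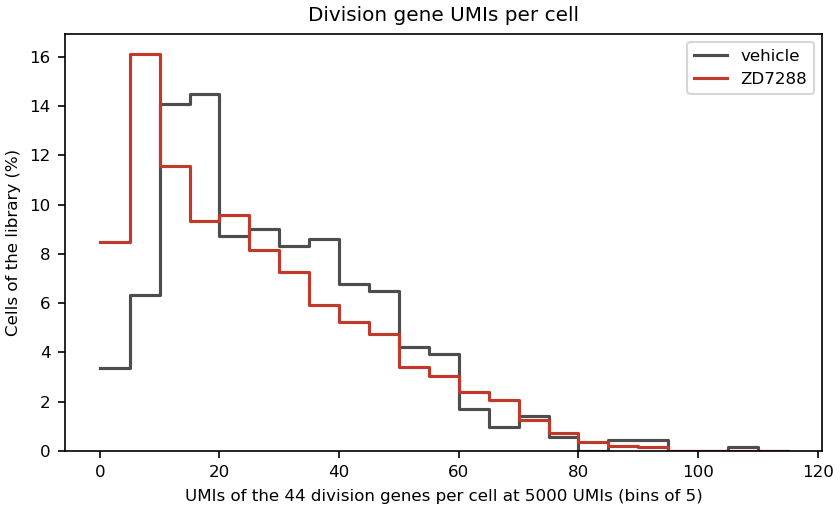
Percent of the cells of each library (vertical axis) by the number of UMIs of the 44 division genes in a cell thinned to 5000 UMIs (horizontal axis, bins of 5) for vehicle (710 cells, grey) and ZD7288 (2838 cells, red). The ZD7288 cells are more frequent at the left end and both distributions fall together at the right, with 90th percentiles of 54 and 55 UMIs.

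The share of cells with a UMI of a gene, at 5000 UMIs per cell, was lower with ZD7288 for 25 of the 38 measured members and higher for 13. In the high band it was lower for 11 and higher for 26, and in the low band lower for 27 and higher for 11. The same split over all measured genes was not computed, so these counts do not set the members apart from other genes. Cdca3 had a UMI in 51.4% (47.7 to 55.1) of vehicle cells and 36.5% (34.7 to 38.3) of ZD7288 cells, and without thinning in 81.0% and 68.9%. Cenpf was seen in 43.7% (39.98 to 47.4) and 31.2% (29.5 to 33.0), without thinning in 70.2% and 56.7%; within the high band it was seen in 70.5% and 71.7%, and within the low band in 24.0% and 9.65%. Cdk1 was seen in 43.2% (39.6 to 47.0) and 51.0% (49.1 to 52.8), without thinning in 75.1% and 78.0%, and Nuf2 in 23.5% (20.4 to 26.8) and 30.4% (28.7 to 32.1), without thinning in 56.8% and 64.2%. Every cell of the culture may divide, so there was no cell type without these genes from which to measure free RNA; the low band is given as a reference of few mitotic transcripts, at 22.0% and 27.5% for Cdk1 and 10.4% and 14.4% for Nuf2. The part of free RNA in low-band values was not tested.

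Other genes of the same structures, from lists that hold no member, departed in both directions as well, against the whole-library background of 27.1% higher and 13.7% lower. Some genes of these lists, among those named below Foxm1, Pbk and Aspm, were also score genes. Of 25 measured further kinetochore and centromere genes 2 were higher and 3 lower: the checkpoint gene Bub3 stood at 156 CPM in the vehicle and 233 CPM in the ZD7288 library (1.49, 1.43 to 1.56), Cenpw at 140 and 101 CPM (1.39-fold lower) and Knl1 at 20.7 and 14.9 CPM. Of 12 condensin and cohesin genes 1 was higher and 4 lower, among them the cohesin subunit Stag2 at 44.5 and 26.9 CPM (1.65-fold lower), the cohesin regulator Pds5b at 36.3 and 24.2 CPM, and the release factor Wapl at 16.1 and 26.2 CPM (ratio 1.63). The other genes that were lower in this list were the cohesin subunit gene Stag1 and Ncaph2, which belongs to condensin II.

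Of 13 measured genes of the anaphase-promoting complex and its partners 3 were higher and 1 lower; the 13 include Ube2s, an enzyme that works with it, and Fbxo5, its inhibitor. Anapc1, its largest scaffold subunit, stood at 26.5 CPM in the vehicle and 13.9 CPM in the ZD7288 library, 1.91-fold lower (1.70 to 2.14), whereas Anapc7 (1.38, 1.24 to 1.54) and Anapc4 (1.32, 1.19 to 1.45) were higher. Its activator gene Cdc20 was higher and its conjugating enzyme gene Ube2c within the rule, as given above. Of 7 measured regulators of entry, the transcription factor gene Foxm1 stood at 21.3 and 15.4 CPM (1.38-fold lower) and the mitotic kinase gene Pbk at 44.7 and 60.7 CPM (ratio 1.36).

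Of 20 further spindle genes 4 were higher and 7 lower. Numa1, which anchors microtubules at the poles, stood at 41.5 CPM in the vehicle and 25.9 CPM in the ZD7288 library, 1.60-fold lower (1.46 to 1.75). Aspm, a spindle pole protein needed for brain size, stood at 26.1 and 16.4 CPM, 1.59-fold lower (1.42 to 1.78), and the augmin subunit gene Haus8 at 26.3 and 39.1 CPM, a ratio of 1.48 (1.34 to 1.65). Of 9 further cytokinesis genes 1 was higher, Pdcd6ip at 44.7 and 58.4 CPM (ratio 1.31), and 0 were lower.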

How the data were processed

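The matrix deposited by the authors holds raw UMI counts per gene and cell barcode, made with Cell Ranger per the submitters' processing notes (software version 3.0.2 per the file headers); genome build and annotation: not given in the sources used here. The number ending each barcode was matched to the number opening each sample title, which fixes the sign of all ratios. Cells were kept with at least 1000 UMIs, 500 genes and at most 10% mitochondrial UMIs, leaving 732 of 842 and 3135 of 3849 barcodes. Counts were summed per library or band and scaled to CPM over 15611454 and 73681950 UMIs, where 3 counts equal 0.192 and 0.0407 CPM. Levels have exact Poisson, ratios and shares exact Clopper-Pearson 95% intervals, which cover counting error only; cells were not treated as replicates.

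The members, the lists and the alternatives were chosen with earlier results of these data known. Named members are those past the rule over whole libraries or in the high band, with the pair of highest CPM in groups without one; from the other lists up to 3 genes with the largest differences are given. Others were named after their values were seen. Marked doublets (4 and 79 cells, 0.8% of a library per 1000 cells, scored against simulated doublets) stayed in. Alternatives covered scaling, cell filters, thinning, floor, fold rule, band limits and score genes. Scripts were tested on simulated data. Python 3.11.15, numpy 2.4.6, scipy 1.17.1, pandas 2.3.3 and scikit-learn 1.9.0 were used.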

Additional observations from a re-analysis of the deposited data

How the results depend on the processing

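No paired analysis was possible because each group has 1 library. Over whole libraries the 3 members higher and 3 lower became 1 and 10 when scaled by the median gene ratio (all genes 19.4% higher and 19.0% lower). They became 1 and 9 with totals without mitochondrial and ribosomal protein genes (20.6% and 19.1%), and 0 and 12 in cells of at most 5% mitochondrial UMIs (17.7% and 15.95%). With each cell thinned to 5000 UMIs they were 3 and 8 (26.3% and 14.0%). With no CPM floor they were 3 and 7 of 44 (29.3% and 24.9%), and by a 1.5-fold rule 0 and 1 (10.0% and 5.21%). Role groups with a median past 0.32, 0 as reported, numbered 2 under each of the first 3 of these settings and 1 after thinning. For the bands, the share of all genes under each setting is not listed in this paragraph, so those counts show no movement particular to the members. In the high band, 5 higher and 0 lower became 6 and 2 with the score read at 2000 UMIs, 4 and 1 with another seed, 4 and 3 with the band at 15% of vehicle cells, 9 and 1 at 40%, 2 and 1 with odd-numbered score genes, 8 and 1 with even-numbered ones, 8 and 1 with limits set on ZD7288 cells, 1 and 2 in cells of at most 5% mitochondrial UMIs, 1 and 1 in these with the band limits kept, and 2 and 3 when scaled by the median gene ratio. In the middle band the 7 higher became 3 with odd-numbered score genes and 2 with that scaling. In the low band the 2 higher became 1 with another seed and with at most 5% mitochondrial UMIs, and 0 with limits set on ZD7288 cells and with that scaling. The 17 lower became 11 after weighting and 13, with 5 higher, in cells of at most 5% mitochondrial UMIs with the limits kept, and were 17 to 22 otherwise. The limits-kept setting also moved the ratio of low-band shares, ZD7288 over vehicle, from 1.21 to 1.81. Among called members the sign turned only in cells of at most 5% mitochondrial UMIs, to log2 ratios of -0.16 (Cdk1) and -0.13 (Cdc20) over whole libraries, 0.023 (Cenpf) in the middle band, and 0.055 (Smc4), -0.24 (Nuf2), 0.29 (Prc1) and -0.31 (Cdc20) in the low band, where the band limits were also set anew, to 6 and 15 score UMIs, with 34 vehicle cells in the high and 61 in the low band. With the limits kept, which was added after the data were seen, it turned in the low band for Top2a (0.24), Nusap1 (0.81) and Prc1 (0.65), with 36 vehicle cells. Role group medians within the rule turned sign too: scaled by the median gene ratio, entry went to -0.011, spindle to -0.081 and central spindle to -0.053, and after thinning spindle went to -0.060. With totals without mitochondrial and ribosomal protein genes spindle went to -0.066 and central spindle to -0.038, and in cells of at most 5% mitochondrial UMIs entry went to -0.17, kinetochore to -0.15, spindle to -0.24 and central spindle to -0.10. The cause was not tested. With 1 library per group, depth gives narrow counting intervals but no measure of spread between cultures.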

Other observations

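Genes of DNA replication and S phase, a list that holds no division gene, are used before mitosis, in cells that copy their DNA. Over whole libraries 2 of 24 measured were higher and 4 lower with ZD7288, beside 27.1% and 13.7% of all genes, and the median log2 ratio was -0.03. The uracil glycosylase gene Ung stood at 83.2 CPM in the vehicle and 62.9 CPM in the ZD7288 library, a ratio of 0.756 (0.711 to 0.805), and the primase gene Prim1 at 87.3 and 114 CPM, a ratio of 1.30 (1.23 to 1.38). In the high band 4 of 19 were higher and 2 lower (all genes 22.2% and 14.0%), in the middle band 5 of 24 were higher and 0 lower (28.7% and 13.2%), and in the low band 0 of 25 were higher and 14 lower (31.6% and 16.2%). The median log2 ratio was -0.02, 0.20 and -0.34 in these bands. A median low-band cell carried 11 UMIs of this list in the vehicle and 7 in the ZD7288 library at 5000 UMIs, while a median high-band cell carried 6 in both. In the main setting the low band thus held fewer S phase and fewer division transcripts per cell in the ZD7288 library. Mean score UMIs of these cells were also lower there, at 1.94 against 2.32 in the vehicle library. Not all low-band calls of division genes held in cells of at most 5% mitochondrial UMIs, and the S phase list is not given in that setting.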
